A study of Mus musculus with 6 samples.

Results

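Inhibitor of DNA binding (ID) proteins and the feedback genes of bone morphogenetic protein (BMP) signaling were followed as 10 named genes in mouse Neuro2a (N2a) cells with and without nemo-like kinase (Nlk). The genes were the ID genes Id1, Id2, Id3 and Id4, the SMAD feedback genes Smad6, Smad7, Smad9 and Bambi, and the ligand genes Bmp4 and Bmp7. They were taken by symbol from the 23690 gene symbols that the 26657 loci of the deposited table carry. The set was chosen because Id3 was lower in the Nlk-KO cells. The comparison of genotypes is therefore given for these 10 genes as a description, with standard errors and without p-values, and tests are given only for other genes of the pathway.

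N2a is a mouse neuroblastoma cell line, and the study asked what loss of Nlk does to its transcripts. Polyadenylated RNA was sequenced from 3 WT and 3 Nlk-KO libraries, with no treatment of either genotype named. The WT cells are described as isogenic controls. The Nlk-KO cells were edited with pairs of guide RNAs that direct a Cas9 nickase to Nlk, and the methods name a plasmid with Cas9 itself as well. Several clones without detectable Nlk protein were used in the study, but the sources used here do not assign the 3 Nlk-KO libraries to clones, and N2a cells are polyploid. The labels call the libraries biological replicates. Nothing further is said of their source, so the error behind each standard error and p-value is that among these 6 libraries and may be technical. Values are FPKM, fragments per kilobase of transcript scaled for each library, so that levels can be compared between genes. The paper names Cuffnorm for the normalized values, and its methods do not state the scaling between libraries. Fold changes are differences of mean log2(FPKM + 0.1), a scale that understates the change of low genes. A locus was tested when its mean over the 6 libraries was at least 0.5 FPKM, and a locus was called when limma's Benjamini-Hochberg adjusted p over all 12667 tested loci was under 0.05.

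ID proteins have a helix-loop-helix but no basic region. They pair with E proteins, the ubiquitous basic helix-loop-helix (bHLH) transcription factors, and keep them and their tissue-restricted partners off DNA, which in neural crest and neural progenitors holds back differentiation. BMP ligands bind pairs of serine/threonine kinase receptors that phosphorylate SMAD1, SMAD5 and SMAD9. These enter the nucleus with SMAD4, and Id1, Id2 and Id3 are among the best known genes they switch on. SMAD6 and SMAD7 are inhibitory SMADs, and BAMBI is a pseudoreceptor without a kinase domain, each able to dampen the pathway that induces it.

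Promoters were searched because SMAD complexes read short GC-rich and CAGAC elements. Sequences are shown for Id3, Id2 and Smad9, which were lower in Nlk-KO cells and held a match. Smad6 was also lower but held no match, and Id4 and Bmp4 held matches but were not lower, so these genes are not shown. RefSeq's promoter table (GRCm38.p6) had an entry for 6 of the 10 genes and none for Id1, Smad7, Bambi and Bmp7. The 250 bases before each start were searched on both strands for GGCGCC, a SMAD1/5-type element, for CAGAC, a SMAD3/4-type element, and for CANNTG, the E-box that E proteins bind. Below, capitals mark the matches, and positions count back from the start. Stretches inside annotated exons or the deposited locus were cut to the match with up to 12 bases on each side.
Id3, chr4:136143643-136143671, plus strand, positions -179 to -151: tgtcctcggcgtCAGACcagcctaaggaa
Id3, chr4:136143742-136143770, plus strand, positions -80 to -52: ggacccttggcgGTCTGttttgaataagg
Id2, chr12:25096254-25096342, minus strand, positions -250 to -162: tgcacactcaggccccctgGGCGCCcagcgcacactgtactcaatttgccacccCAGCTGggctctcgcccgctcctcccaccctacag
Smad9, chr3:54755332-54755372, plus strand, positions -250 to -210: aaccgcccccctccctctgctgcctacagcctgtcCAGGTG
Smad9, chr3:54755519-54755548, plus strand, positions -63 to -34: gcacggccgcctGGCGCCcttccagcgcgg

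The Id3 window held 2 CAGAC matches, the second on the opposite strand (GTCTG), and neither of the other motifs. All 250 bases of the Id3 window and 161 bases of the Id2 window lie inside exons annotated by GENCODE. These windows lie before the RefSeq start, but not wholly outside the annotated genes. The Id2 and Smad9 windows each held 1 GGCGCC and 1 CANNTG match and no CAGAC. Id4 had 1 GGCGCC match, Bmp4 had 3 CANNTG matches, and Smad6 had none of the 3 motifs. Among all 32851 promoters of the table, 9.59% held GGCGCC, 42.2% held CAGAC and 66.2% held CANNTG. The GC content of the 6 windows was 62.8% to 75.6%, against a median of 52.4% over all promoters. These matches are letters in a window and not measured binding sites.

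Nlk itself, the targeted gene, had a mean of 16.2 ± 0.390 FPKM in WT and 6.88 ± 0.119 FPKM in Nlk-KO libraries (SD, n = 3 each), or 42.5% of the WT level, and no library went against its label. Depth relative to WT replicate 1, read from the steps of single fragments in low loci, ran from 0.973 to 1.28 over the other 5 libraries. Across genes, which are not independent replicates, Pearson correlations of libraries were 0.952 or more inside each genotype and 0.939 to 0.956 between them. Of 16 sympathetic neuron and neuroblastoma markers, 13 were above the filter, among them Phox2a and Hand2, a factor of sympathetic neurons, with a mean of 374 FPKM in WT and 398 FPKM in Nlk-KO cells. The neurofilament genes Nefl and Nefm were below it. Of these 13 markers, 7 were called lower in Nlk-KO cells and 1 higher, and the catecholamine enzyme genes had WT means of 4.19 (Th) and 17.5 FPKM (Dbh) and Nlk-KO means of 0.415 and 2.25 FPKM. The summed level of the whole list was 2372 to 2502 FPKM in WT and 2064 to 2081 FPKM in Nlk-KO libraries. Of 7 fibroblast markers, Col1a1, Col1a2, Dcn and Lum were near 0 in both genotypes, while the 2 above the filter, Fbln1 and Pdgfra, were higher in Nlk-KO cells. That list summed to 136 to 153 FPKM in WT and 200 to 213 FPKM in Nlk-KO libraries. Fbln1 alone made up nearly all of this sum, at 135.2 to 152.4 FPKM in WT and 197.6 to 210.5 FPKM in Nlk-KO libraries. The part of either marker change in the ID values was not tested. Defining markers of immune, Schwann and endothelial cells (Ptprc, Sox10 and Cdh5) reached at most 0.0381 FPKM in the mean of either genotype. Nlk-KO replicate 2 stood apart from the other Nlk-KO libraries for Nefl (1.03 against 0.103 and 0.0248 FPKM), but not for any of the 10 genes.

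Id1, Id2 and Id3 were the most abundant transcripts of the set, and all were lower in every Nlk-KO library than in any WT library. The ID genes other than Id4 are short, with 934 bases in the GENCODE transcript of Id1 used here, 1270 in that of Id2 and 1278 in that of Id3.

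Id3, an inhibitor of E proteins that lies on chromosome 4 (locus 136143822 to 136145392, plus strand, GRCm38), was measured at 49.6, 51.2 and 48.2 FPKM across WT replicates 1, 2 and 3. Across Nlk-KO replicates 1, 2 and 3 it was at 19.6, 18.5 and 18.4 FPKM. The genotypes lay far apart, with a coefficient of variation of 3.06% within WT and 3.55% within Nlk-KO. The means were 49.6 ± 1.52 and 18.8 ± 0.670 FPKM (SD, n = 3 each), a log2 fold change of -1.39 (standard error 0.040) that left Id3 at 38% of its WT level. This was the difference for which the set was chosen, and in bulk RNA fewer cells with the transcript and less transcript per cell cannot be told apart. Of the 12667 tested loci, 135 had a lower log2 fold change than Id3, and of the 1959 tested loci at or above the WT level of Id3, 23 had a log2 fold change at least as low, Id3 included.

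Id2, which in nervous tissue holds back neuronal differentiation and lies on chromosome 12 (25093799 to 25096092, minus strand), was measured at 35.3, 32.7 and 30.4 FPKM across WT replicates 1, 2 and 3. It was at 23.0, 21.2 and 22.5 FPKM in the Nlk-KO libraries. Every Nlk-KO value lay below the lowest WT value. The means were 32.8 ± 2.41 and 22.2 ± 0.963 FPKM (SD, n = 3 each), with a log2 fold change of -0.56 (standard error 0.060).

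Id1, a direct SMAD target in many cell types, lies on chromosome 2 (152736251 to 152737410, plus strand). Its WT libraries, in the order of their numbers, held 43.9, 44.8 and 37.7 FPKM. The Nlk-KO libraries held 31.2, 32.7 and 29.4 FPKM. WT replicate 3 was the lowest WT library for Id1 and for Id2 and Id3 as well, and it still lay above all Nlk-KO libraries. The means were 42.1 ± 3.84 and 31.1 ± 1.62 FPKM (SD, n = 3 each), with a log2 fold change of -0.43 (standard error 0.072).

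Id4, the ID gene best known from astrocyte and neural progenitor work, could not be measured with the same confidence. The table has 2 rows with the symbol Id4, both given as chromosome 13 from 48044231 to 48265996, while GENCODE M21 places the gene itself on the plus strand from 48261228 to 48266026. The span also holds the antisense gene A330033J07Rik, which has a row of its own at or near 0 FPKM, and no source used here says that the libraries kept strand, so reads of these transcripts may not be told apart. The tracking number of the row taken here directly follows that of the antisense gene, and the other row is numbered far from it, so the row taken may hold antisense transcripts and not Id4 itself. The row with the higher mean, which the rule takes, read 3.16, 4.34 and 4.46 FPKM across WT replicates 1, 2 and 3 and 7.13, 4.10 and 3.18 FPKM across Nlk-KO replicates 1, 2 and 3. Here the genotypes overlapped, and the coefficient of variation reached 43.1% in Nlk-KO cells (log2 fold change 0.20, standard error 0.28). The other row read 3.27, 2.89 and 3.10 FPKM in WT and 3.50, 4.15 and 4.34 FPKM in Nlk-KO libraries, without overlap and with a log2 fold change of 0.36 (standard error 0.092). Nlk-KO replicate 1 decided the direction of the first row, whose log2 fold change was -0.12 without it. Neither row came near the levels of the other ID genes.

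**Figure D1:**
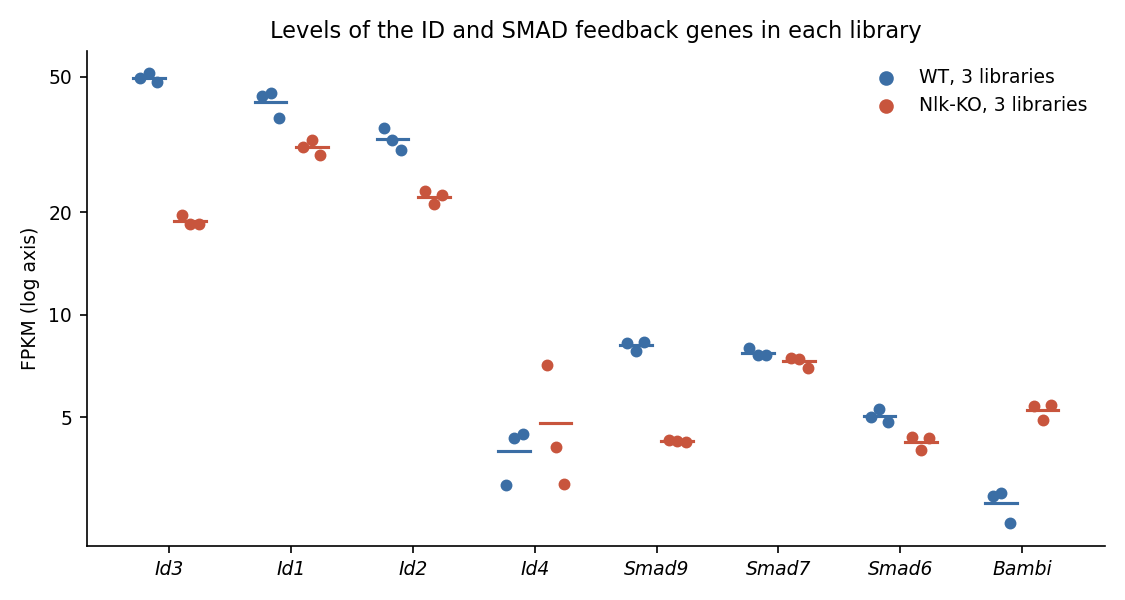
FPKM (log axis) of the 8 genes above the filter in each of the 3 WT (blue) and 3 Nlk-KO (red) libraries, with 1 point per library and a bar at the mean of the genotype. Id3, Id1, Id2, Smad9, Smad7 and Smad6 have all Nlk-KO points below all WT points, Bambi has them above, and Id4 (the row with the higher mean) overlaps.

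The changes of the ID genes were unequal, so their order by level differed between genotypes. In WT cells the order was Id3 (49.6 FPKM), Id1 (42.1 FPKM), Id2 (32.8 FPKM) and, far lower, Id4 (3.99 FPKM). In Nlk-KO cells it was Id1 (31.1 FPKM), Id2 (22.2 FPKM), Id3 (18.8 FPKM) and Id4 (4.80 FPKM). The replicate ranges of neighbors in both orders did not overlap. The ratio of Id3 to Id1 was 1.13, 1.14 and 1.28 in WT libraries and 0.630, 0.565 and 0.626 in Nlk-KO libraries. That of Id2 to Id1 was 0.730 to 0.807 in WT and 0.647 to 0.763 in Nlk-KO libraries, with overlap, whereas that of Id3 to Id1 did not overlap.

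Summed over Id1 to Id4, ID transcripts came to 132, 133 and 121 FPKM across WT replicates 1, 2 and 3 and to 80.9, 76.4 and 73.5 FPKM across Nlk-KO replicates 1, 2 and 3. The Nlk-KO mean was 59.9% of the WT mean, or 57.9% without the uncertain Id4 row, and the genotypes did not overlap in either sum. Id3 made up 38.7% ± 1.2 of the sum in WT and 24.5% ± 0.51 in Nlk-KO cells (SD, n = 3 each). Their binding partners, the E protein genes Tcf3 (E2A), Tcf4 (E2-2) and Tcf12 (HEB), summed to 118, 120 and 116 FPKM in WT and 109, 105 and 104 FPKM in Nlk-KO libraries, or 89.8% of WT. Per unit of E protein transcript, ID transcript was accordingly at 1.09 ± 0.040 in WT and 0.725 ± 0.019 in Nlk-KO cells (SD, n = 3 each). These are transcript ratios, and protein amounts were not measured.

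**Figure D2:**
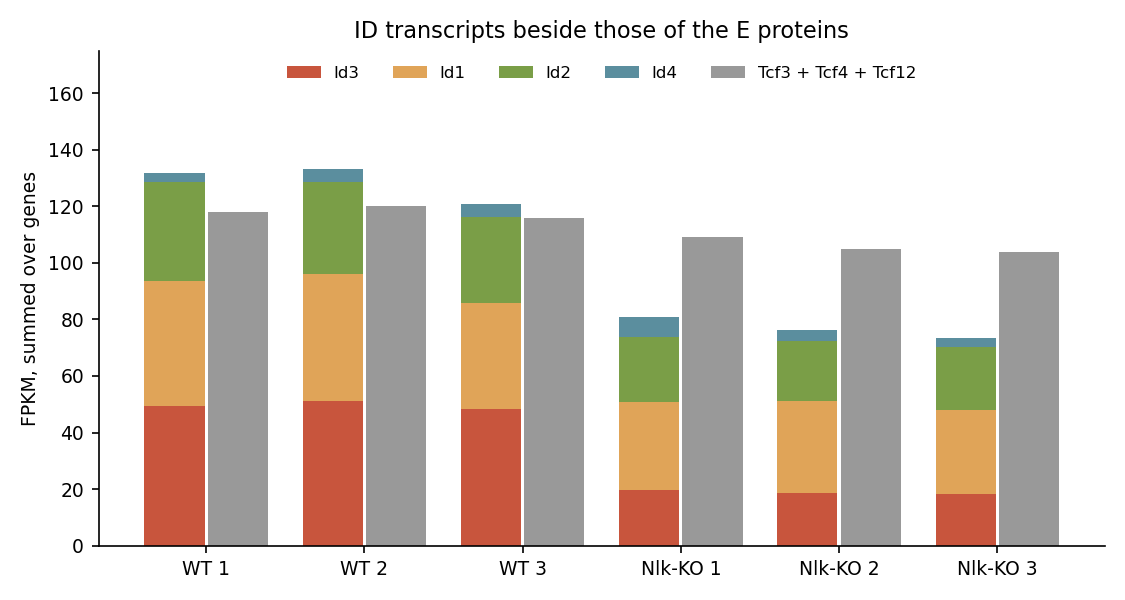
Summed FPKM of the 4 ID genes (stacked colors, 1 bar per library) beside the sum of the 3 E protein genes (gray) in the 3 WT and 3 Nlk-KO libraries. ID sums run from 121 to 133 FPKM in WT and from 73.5 to 80.9 FPKM in Nlk-KO libraries, and the E protein sums from 116 to 120 and from 104 to 109 FPKM.

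The SMAD feedback genes were expressed at less than 10 FPKM and did not move as a block. Smad9 was lower in Nlk-KO cells, Bambi was higher, and Smad6 and Smad7 differed little.

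Smad9 encodes SMAD8, a BMP-regulated SMAD whose own transcription responds to BMP and whose activity is weak, and it lies on chromosome 3 (54755373 to 54807910, plus strand). It was measured at 8.23, 7.83 and 8.33 FPKM across WT replicates 1, 2 and 3. Across Nlk-KO replicates 1, 2 and 3 it was at 4.27, 4.24 and 4.23 FPKM. The Nlk-KO libraries agreed to within a coefficient of variation of 0.470%, and the means were 8.13 ± 0.266 and 4.25 ± 0.020 FPKM (SD, n = 3 each), a log2 fold change of -0.92 (standard error 0.044). Rfxap, whose product is a subunit of the factor that drives MHC class II genes, is listed over the same span and was also lower, at 11.9 and 8.89 FPKM (log2 fold change -0.42). The sharing of reads between these 2 loci was not tested.

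Bambi, on chromosome 18 (3506827 to 3516404, plus strand), changed the other way. WT replicates 1, 2 and 3 had 2.94, 3.00 and 2.44 FPKM, and Nlk-KO replicates 1, 2 and 3 had 5.38, 4.90 and 5.43 FPKM. The lowest Nlk-KO library stood well above the highest WT library. The means were 2.79 ± 0.307 and 5.24 ± 0.297 FPKM (SD, n = 3 each), a log2 fold change of 0.89 (standard error 0.090). The ratio of Bambi to Smad9 came to 0.344 ± 0.046 in WT and 1.23 ± 0.070 in Nlk-KO cells (SD, n = 3 each).

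Smad6, which mainly restrains BMP receptors, lies on chromosome 9 (63953076 to 64023006, minus strand). WT replicates 1, 2 and 3 had 4.99, 5.28 and 4.84 FPKM, and Nlk-KO replicates 1, 2 and 3 had 4.36, 4.01 and 4.33 FPKM. The genotypes did not overlap, but the difference was small (log2 fold change -0.25, standard error 0.058).

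Smad7, which restrains both TGF-β and BMP receptors and lies on chromosome 18 (75367326 to 75395937, plus strand), was at 7.99, 7.59 and 7.60 FPKM in WT and at 7.47, 7.42 and 6.98 FPKM in Nlk-KO libraries. The gap between the lowest WT and the highest Nlk-KO library was under the spread within each genotype (log2 fold change -0.08, standard error 0.046).

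In WT cells Smad9 (8.13 FPKM) and Smad7 (7.73 FPKM) were not separated by their replicate ranges, whereas Smad6 and Bambi each stood apart below them. In Nlk-KO cells Smad7 (7.29 FPKM) was the highest of the feedback genes, above Bambi (5.24 FPKM), while Smad9 (4.25 FPKM) and Smad6 (4.23 FPKM) overlapped.

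The ligand genes of the set were not detected at a usable level. Bmp4, on chromosome 14 (46379524 to 46390599), was listed at 0 in all 6 libraries. Bmp7, on chromosome 2 (172868012 to 172940321), was at 0 FPKM in 2 WT libraries and in 1 Nlk-KO library, and at 0.00756 FPKM in WT replicate 2 and at 0.00845 and 0.0138 FPKM in the first and second Nlk-KO replicates. Both were below the filter and have no fold change here.

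In all, 8 of the 10 genes were above the filter, and 6 of these 8 passed the calling threshold (5 lower and 1 higher), against 37.1% of all tested loci (18.5% lower and 18.6% higher). The genotypes did not overlap in 7 of the 8 (6 with Nlk-KO below WT and 1 with Nlk-KO above), against 51.0% of all tested loci (25.9% below and 25.1% above). Nothing is read from these counts, since results of the same comparison chose the set. Id4 and Smad7 were the members not called. These calls are on FPKM as deposited, and calls under other scalings are not given for the 10 genes.

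**Figure D3:**
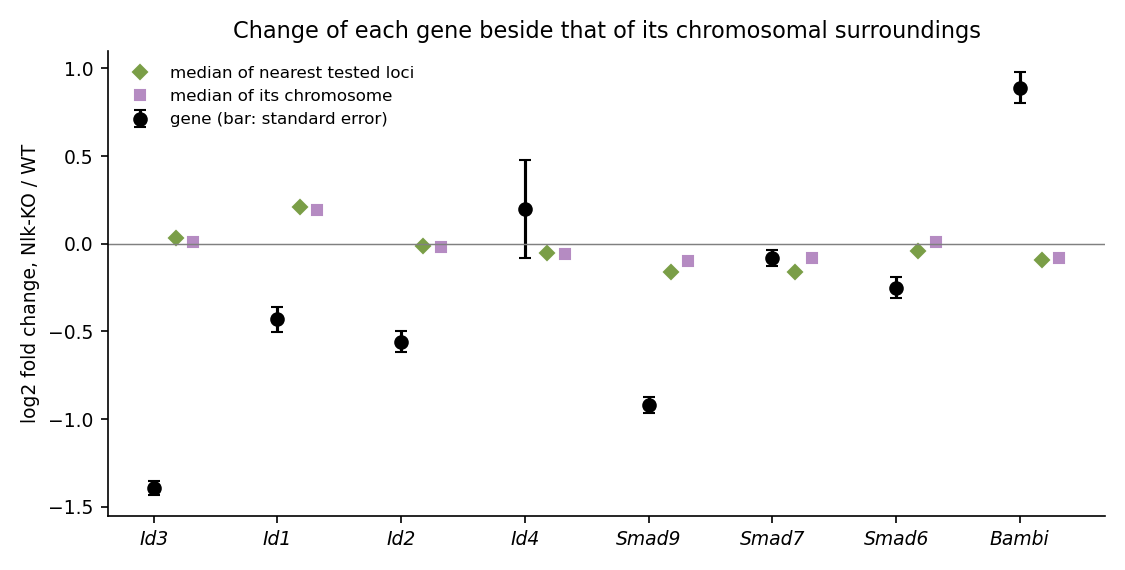
Log2 fold change (Nlk-KO over WT) of each of the 8 genes above the filter (black, with its standard error), beside the median of the nearest tested loci (green diamonds) and the median of all tested loci of its chromosome (violet squares). Id3 lies at -1.39 with medians of 0.03 and 0.01 around it, and Id1 lies at -0.43 on a chromosome with a median of 0.19.

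Because transcripts of some chromosomes differed together between genotypes, each gene was set beside the 10 nearest tested loci on each side. Around Id1 on chromosome 2, the median log2 fold change of the 20 neighbors was 0.21, with 14 called higher and 3 lower, and that of the 1042 tested loci of the chromosome was 0.19. Id1 thus went against its surroundings, and with the median of each chromosome removed its log2 fold change was -0.62. Around Id3 the neighbors had a median of 0.03 and chromosome 4 a median of 0.01. The nearest ones on either side, Rpl11 and E2f2, had log2 fold changes of -0.05 and -0.14, and Tcea3 nearby had 2.14. The neighbors of Id2 had a median of -0.01 and those of Smad6 of -0.04. Smad9 lay in a lower region, where 8 of 20 neighbors were called lower and the median was -0.16, and on a chromosome with a median of -0.10. With chromosome medians removed its log2 fold change was -0.82. Bambi lies near the start of chromosome 18, with only 2 tested loci before it, and its 12 neighbors had a median of -0.09, with 4 called lower. The neighbors of Smad7 on the same chromosome had a median of -0.16, and with the chromosome's median of -0.08 removed the log2 fold change of Smad7 was 0.00.

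**Figure D4:**
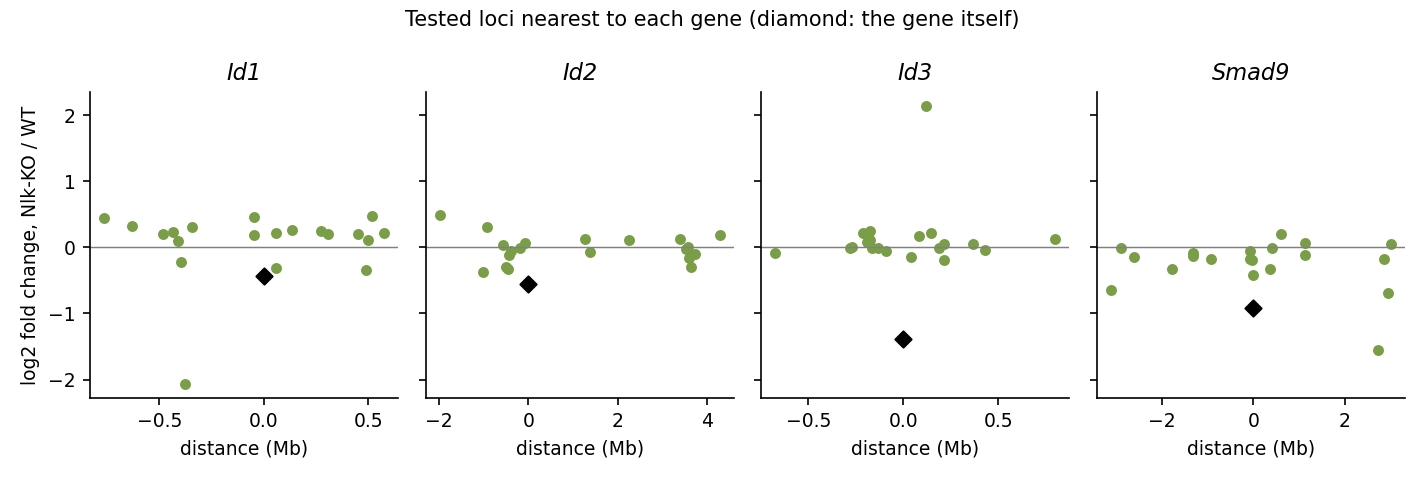
Log2 fold change (Nlk-KO over WT) of the 10 nearest tested loci on each side of Id1, Id2, Id3 and Smad9 (green points) against their distance from the gene in megabases, with the gene itself as a black diamond. Id3 lies at -1.39 below neighbors with a median of 0.03, and the neighbors of Id1 have a median of 0.21 with Id1 at -0.43.

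The loci most like Id3 over the 6 libraries were sought among 8248 other loci with a single symbol and a mean of at least 5 FPKM, by the Euclidean distance between log2 profiles, each centered on its own mean. They were D10Bwg1379e (distance 0.177), Nxf7 (0.185), Pygl, which encodes liver glycogen phosphorylase (0.192), Arhgef28 (0.209), and Zcchc12 (0.220). Zcchc12 encodes a zinc finger protein described as a coactivator in BMP signaling in mouse neurons, and had 35.2 to 37.0 FPKM in its WT libraries against 15 to 15.5 FPKM in its Nlk-KO libraries. Pygl went from a mean of 13 to 5.29 FPKM and Arhgef28 from 13.6 to 4.60 FPKM. Likeness here is that of level differences between 2 groups, and any locus lowered to a similar extent scores well.

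The other genes of the pathway, 120 in 8 lists by role, show where the machinery around the ID genes stood. Of the 120, 61 were above the filter and 59 below it. Among the 61, 19 (31.1%) were called higher and 12 (19.7%) lower in Nlk-KO cells, beside 18.6% and 18.5% of all tested loci, and 30 were not called. Their median log2 fold change was 0.06, against -0.01 over all tested loci. With every library scaled to an equal FPKM total of its named loci (called rescaling from here on), 10 were called higher and 1 lower, and the split over all loci was 568 higher and 355 lower in place of 2356 and 2341. The pathway genes still called were Nbl1, Fstl1, Bmp1, Eng, Acvr1, Zeb2, Tgif2, Tgfb1, Tgfb3 and Tgfbr1, all higher, and Crim1, lower, so the call of every other gene named below as higher or lower ended there. A different scaling, by each library's median ratio to the geometric mean of the libraries (median of ratios), left 19 pathway genes higher and 12 lower.

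Of 11 other BMP and GDF ligand genes, only Gdf7, which instructs dorsal spinal neurons, was above the filter. It averaged 3.00 FPKM in WT and 2.76 FPKM in Nlk-KO cells (log2 fold change -0.12, adjusted p = 0.268 from limma). The highest of the remaining 10 was Bmp8a, at 0.171 and 0.341 FPKM. Apart from Gdf7, no BMP or GDF gene of the list, nor Bmp4 or Bmp7, reached 0.5 FPKM in either genotype.

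Extracellular antagonists and modulators changed in both directions, with 3 of 7 tested higher and 2 lower. Nbl1 (DAN), a secreted antagonist of BMP ligands, rose from 6.74, 6.75 and 6.32 FPKM across WT replicates 1, 2 and 3 to 19.5, 17.8 and 18.6 FPKM across Nlk-KO replicates 1, 2 and 3. No library of one genotype came near those of the other (log2 fold change 1.48, standard error 0.048, adjusted p = 1.70e-06 from limma). Fstl1, a follistatin-like glycoprotein gene, rose from 37.6 ± 0.536 to 67.1 ± 3.8 FPKM (SD, n = 3 per genotype), with a log2 fold change of 0.83. Crim1, which tethers BMPs at the cell surface, fell from 1.73 ± 0.0646 to 0.695 ± 0.0179 FPKM (SD, n = 3 per genotype), with a log2 fold change of -1.20 (adjusted p = 1.09e-04). Bmp1, a protease that cleaves chordin, was also higher (0.63 on the log2 scale) and Fst, which encodes follistatin, lower (-0.55), and of the pair only Bmp1 was called after rescaling (adjusted p = 0.0169 and 0.379). The classical antagonist genes Nog, Chrd and Grem1 were below the filter.

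Among receptors and co-receptors, 4 of 9 tested were higher and 1 lower. Eng, which encodes endoglin, a co-receptor for BMP9 and TGF-β, was at 2.91, 2.73 and 2.62 FPKM in WT and at 8.04, 7.95 and 8.48 FPKM in Nlk-KO libraries (log2 fold change 1.53, standard error 0.058, adjusted p = 3.30e-06 from limma). Acvr1, the type I receptor ALK2, rose from 9.67 ± 0.435 to 16.0 ± 1.24 FPKM (SD, n = 3 per genotype), with a log2 fold change of 0.72. Rgmb, a co-receptor of the repulsive guidance family, fell from 9.73 ± 0.509 to 6.14 ± 0.234 FPKM (SD, n = 3 per genotype), with a log2 fold change of -0.66 (adjusted p = 1.13e-04), a call that ended after rescaling (adjusted p = 0.0598). The type II receptor genes Bmpr2 and Acvr2a were higher by 0.30 and 0.39 on the log2 scale, and neither was called after rescaling (adjusted p = 0.468 and 0.247). The type I receptor genes Bmpr1a and Bmpr1b had log2 fold changes of 0.06 and 0.00 and were not called. Eng and Acvr1 lie on chromosome 2, where 5 of 7 tested pathway genes were higher. Of all 1042 tested loci of that chromosome, 562 were called higher, so nothing is read from the count of pathway genes. All 5 were also called with the median of each chromosome removed.

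Of the SMADs that carry the BMP signal, Smad1, Smad5 and Smad4 differed little, while Smad9, described above, was lower (log2 fold change -0.92). Smad1 was at 21.2, 20.6 and 19.7 FPKM in WT and at 19.5, 18.7 and 19.1 FPKM in Nlk-KO libraries (log2 fold change -0.10, adjusted p = 0.0733 from limma). Smad5 had a log2 fold change of -0.10 (adjusted p = 0.106) and the common partner Smad4 of -0.07 (adjusted p = 0.322), and none of these 3 was called. Smad1 and Smad5 passed the threshold without WT replicate 3 (adjusted p = 0.0336 for Smad1) and without Nlk-KO replicate 1 (adjusted p = 0.0432 for Smad5). Of the TGF-β SMADs, Smad3 rose from 1.84 ± 0.183 to 2.40 ± 0.108 FPKM (SD, n = 3 per genotype), with a log2 fold change of 0.38 (adjusted p = 0.0163), and its call ended without Nlk-KO replicate 1 (0.0536) or replicate 3 (0.0502), after rescaling (0.468) or against a change of 1.2-fold (0.754). Smad2 had a log2 fold change of 0.12 (adjusted p = 0.0462) and was not called without WT replicate 1 or 2 or Nlk-KO replicate 1 or 3 (0.0970 to 0.158), after rescaling (0.967) or against a change of 1.2-fold (1.00).

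Of 17 tested genes that turn over SMADs, remove their phosphates or act as corepressors, 5 were higher and 4 lower. Zeb2, a SMAD-binding repressor, rose from 13.1 ± 0.213 to 22.8 ± 0.827 FPKM (SD, n = 3 per genotype), with a log2 fold change of 0.79 (adjusted p = 1.09e-05 from limma). The homeobox corepressor genes Tgif2 and Tgif1 rose too, with log2 fold changes of 0.79 and 0.52, and the call of Tgif1 ended after rescaling (adjusted p = 0.0607). The genes called lower included Zfp423, a zinc finger partner of BMP SMADs, from 27.0 to 21.7 FPKM (log2 fold change -0.31), and the phosphatase gene Ppm1a, from 42.2 to 37.3 FPKM (-0.18), and after rescaling neither was called (adjusted p = 0.812 and 1.00). Zeb2 and Tgif2 also lie on chromosome 2.

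Of 8 tested genes of the TGF-β and activin arm, 5 were higher, beside 18.6% of all tested loci, and 0 lower by limma, also at an unadjusted p under 0.05. Tgfb3 rose from 1.43 ± 0.0764 to 3.94 ± 0.367 FPKM (SD, n = 3 per genotype), with a log2 fold change of 1.39 (adjusted p = 3.46e-05). Tgfb1 and the type I receptor gene Tgfbr1 rose as well, with log2 fold changes of 0.73 and 0.69. Another 7 of the 15 genes of the list were below the filter. Among them was the type II receptor gene Tgfbr2, at 0 FPKM in every WT library and at most 0.00532 FPKM in a Nlk-KO library. Ltbp3 and Ltbp4, which hold latent TGF-β in the matrix, were higher by 0.25 and 0.33, but not called after rescaling (adjusted p = 0.623 and 0.388). Inha, Acvr1b and Tgfb2 had log2 fold changes of -0.25, -0.01 and 0.00 and were not called. The summed level of the whole list was 73.3 to 77.2 FPKM in WT and 98.3 to 101 FPKM in Nlk-KO libraries.

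Other reported BMP targets were mostly not called, with 2 of 7 tested lower and 0 higher by limma (3 and 0 at an unadjusted p under 0.05). Tbx2, a T-box repressor gene, fell from 17.1 ± 1.08 to 11.2 ± 0.301 FPKM (SD, n = 3 per genotype), with a log2 fold change of -0.60 (adjusted p = 1.59e-04 from limma), and Gata2, a zinc finger factor of sympathetic neurons, from 38.8 ± 1.54 to 29.2 ± 0.837 FPKM (SD, n = 3 per genotype), with a log2 fold change of -0.41. Both calls ended after rescaling (adjusted p = 0.0959 and 0.541). Hey1, Atoh8, Dlx2, Gata3 and Junb had log2 fold changes of 0.07, 0.14, 0.12, 0.12 and -0.18.

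Of the bHLH genes, 7 of 25 were above the filter, of which 3 were lower and 0 higher by limma, also at an unadjusted p under 0.05. Tcf3, the E protein gene that ID proteins are best known to oppose, was at 20.8, 21.5 and 19.0 FPKM in WT and at 14.3, 14.7 and 14.5 FPKM in Nlk-KO libraries (log2 fold change -0.49, standard error 0.050, adjusted p = 3.49e-04 from limma). The call ended after rescaling (adjusted p = 0.287). Tcf4, the most abundant E protein gene, fell from 71.3 ± 0.789 to 64.2 ± 2.43 FPKM (SD, n = 3 per genotype), with a log2 fold change of -0.15 (adjusted p = 0.0150), and was no longer called without WT replicate 2 (0.05) or Nlk-KO replicate 3 (0.0571), with chromosome medians removed (0.172) or after rescaling (1.00). Tcf12 had a log2 fold change of 0.06 (adjusted p = 0.211). Lyl1, a hematopoietic bHLH gene, fell from 1.13 ± 0.133 to 0.618 ± 0.048 FPKM (SD, n = 3 per genotype), with a log2 fold change of -0.77 (adjusted p = 0.00450), a call that also ended after rescaling (0.149). Hand2, the sympathetic bHLH gene and by far the highest of the list, had a log2 fold change of 0.09 and was not called.

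**Figure D5:**
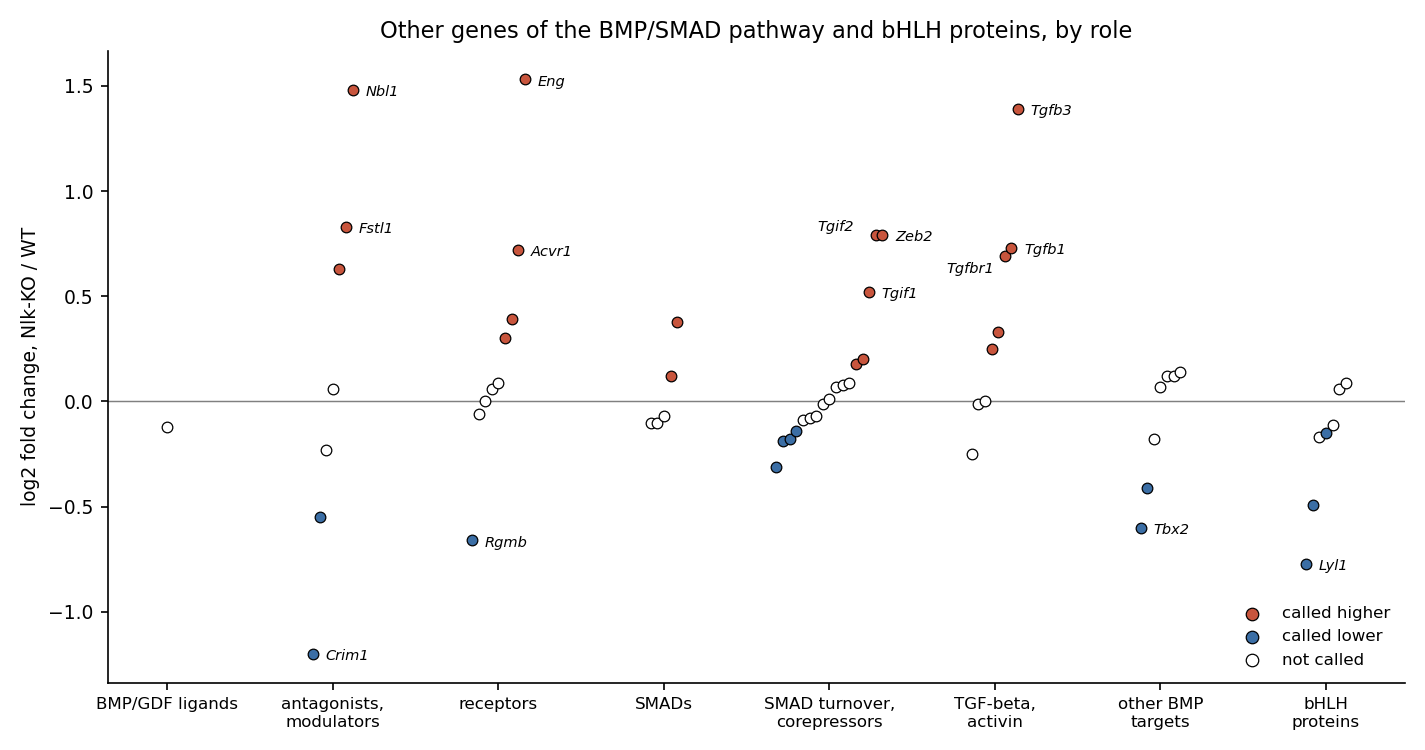
Log2 fold change (Nlk-KO over WT) of the 61 other pathway and bHLH genes above the filter, grouped by role, with red points called higher (19), blue points called lower (12) and open points not called (30). Nbl1 (1.48), Eng (1.53) and Tgfb3 (1.39) lie highest and Crim1 (-1.20) lowest.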

How the data were processed

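RNA of 3 WT and 3 Nlk-KO N2a libraries was poly(A)-selected and read as paired ends. The authors aligned reads to GRCm38 (mm10) with TopHat2 (2.1.0), ran Cufflinks (2.2.1) and Cuffnorm and deposited FPKM for each locus and library, as the paper's methods and the submitters' processing notes state. The annotation, the strandedness and the total reads are not stated there. The deposited table also holds the authors' Cuffdiff fold changes, p-values and adjusted p-values, and a further sheet holds loci selected by them. None of these was used, and 1 line without values was left out. Cuffdiff needs the reads, so limma stood in for it.

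Columns were matched by name, with 0 unmapped. Of several loci with 1 symbol, that with the highest mean was used. Log2(FPKM + 0.1) of the 12667 loci averaging at least 0.5 FPKM entered limma (3.58.1, R 4.3.3), Nlk-KO against WT with trended variance, with Benjamini-Hochberg adjustment. Its code was first tested on simulated data. An exact permutation test of 3 libraries against 3 has a smallest p of 0.1 and was not run. The 10 genes, the pathway lists and the alternatives were chosen with earlier results of these data known. Named genes are the 10, Nlk, up to 3 called genes of each pathway list with the largest change, the E proteins, Smad1, Smad4 and Smad5, and the 5 loci most like Id3. Other names (neighbors, markers and further pathway genes) were added after their values were seen. The alternatives were other pseudocounts, filters, scalings, variance prior and threshold, removal of chromosome medians, a replicate block and each library left out. Some marker genes are counted in their lists but not reported here by name.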

Additional observations from a re-analysis of the deposited data

How the results depend on the processing

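Id3 had a log2 fold change of -1.39, and it stayed between -1.42 and -1.33 under every alternative run, with -1.42 to -1.37 when 1 library was left out and -1.33 with every library scaled to an equal FPKM total of its named loci. That rescaling moved the counts most. It left 568 loci higher and 355 lower in place of 2356 and 2341, and 10 pathway genes higher and 1 lower in place of 19 and 12, and it shifted the median of all loci from -0.01 to 0.05. The factors of that rescaling ran from 0.8615 in WT replicate 2 to 1.162 in Nlk-KO replicate 1 and differed inside each genotype. Scaling by median of ratios had factors of 0.991 to 1.008. It left 2500 loci higher and 2305 lower, with 19 pathway genes higher and 12 lower. The cause of the move under rescaling was not tested. A test against a change of 1.2-fold, a stricter threshold by construction, left 618 loci higher and 451 lower, and 11 pathway genes higher and 6 lower. With 1 library left out, pathway genes numbered 17 to 20 higher and 9 to 14 lower, and loci 1851 to 2199 higher and 1681 to 2340 lower. Same-numbered libraries deviated together with correlations of -0.132 to 0.06, and not every library correlated best with its own number, so the numbers do not pair them. With a replicate block, 2065 loci were higher and 1973 lower and 18 and 12 pathway genes, and the block ended the call of Smad2 (adjusted p = 0.0631) and no other named call. No named gene turned its called direction.

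Over the alternatives the log2 fold change ran from -0.62 to -0.37 for Id1, from -0.61 to -0.49 for Id2, from -0.95 to -0.80 for Smad9, from -0.27 to -0.18 for Smad6, from 0.72 to 0.97 for Bambi and from -0.12 to 0.45 for Id4, which changes sign. The range of Smad7 was -0.10 to 0.00. The choice of the other Id4 row was made after seeing the data. Fold changes of genes near 1 FPKM, such as Crim1 and Lyl1, are limited by depth, which is known only in relative terms.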
